A study of Mus musculus with 6 samples.

Results

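A set of 10 transcription factor genes known from endothelial cells was followed in whole fetal livers at embryonic day 11.5: the ETS factors Ets1, Erg and Elk3, the SOX factors Sox7, Sox17 and Sox18, the nuclear receptor Nr2f2, the zinc-finger factor Klf2, the bZIP factor Maf and the bHLH-zipper factor Tfec. They were taken by gene symbol through the Entrez gene number of each array feature, and all 10 of 10 were measured, among 23279 genes tested. Total RNA of dissected livers had been hybridised to 6 Affymetrix arrays, 3 of each genotype, which the labels call biological replicates. The first group, labelled Stab2Cre;Gata4 knockout, should carry the Stab2-Cre transgene and 2 floxed Gata4 alleles. The control group is labelled Stab2Cre;Gata4 heterozygous, so its livers carry the Cre as well and, by the cross described, 1 floxed and 1 wild-type allele. The floxed allele came from the line B6;129-Gata4tm1.1Sad/J. The Cre follows Stab2, whose protein takes up hyaluronan in the lining of liver capillaries (sinusoidal endothelium), and that promoter limits the deletion to cells in which the transgene was active; whole liver also holds hepatoblasts, mesenchyme and many blood cells. Litters and pooling of embryos are not stated in the labels, so p-values measure the spread between these 6 arrays only.

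ETS factors bind a GGAA core and occupy the enhancers of most endothelial genes, often together with forkhead or GATA factors. SOX7, SOX17 and SOX18 form the F group of SOX proteins, which act in overlapping ways in the forming vessels, SOX17 in arteries and SOX18 in lymphatic precursors among other places. Among the other members, NR2F2, also called COUP-TFII, maintains venous identity, KLF2 answers to laminar blood flow, c-MAF is made by sinusoidal endothelium and by macrophages, and TFEC belongs to the MITF family and is best known from macrophages.

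Data are log2 expression values, a scale on which 1 unit is a doubling, read from RNA of the whole organ. In such bulk samples fewer cells of a type and less RNA per cell cannot be told apart. Values of the 6 arrays ran from 2.55 to 13.9, and correlations with the own group were 0.991 to 0.995. Labelled knockout replicate 2 had the lowest correlation and the largest median deviation from its group mean (0.104, against 0.0755 to 0.0879). For some genes it stood far above the other arrays. Sox2 read 6.02 there and 3.85 to 4.04 elsewhere, and Foxf1 10.86 there and 9.02 to 9.75 elsewhere. The liver genes Afp and Alb lay near the top of the scale in every array (13.3 to 13.5). Gata4 itself read 10.38, 10.26 and 10.64 in livers labelled knockout and 9.90, 9.96 and 9.87 in control livers, higher rather than lower (log2 fold change 0.51, SE 0.12, adjusted p = 0.0409). Where its probes lie relative to the deleted part is not known, so it is no check of the genotypes, and all directions below rest on the labels. Embryo sex was unbalanced: Xist was 10.71, 10.34 and 10.31 in livers labelled knockout, against 3.58, 10.19 and 3.96 in control livers, so that the only control with a female-type level was replicate 2. Each member is therefore also set against control replicate 2 alone.

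The proximal promoters of 3 members are shown because they belong to the largest fall (Tfec), to the rise that depended least on any 1 array (Nr2f2) and to the flow-regulated member (Klf2). Each is the 250 bases before the RefSeq transcription start in GRCm38.p6, printed along the gene's own strand. They lie at chr6:16898442-16898691 (minus strand, Tfec), chr7:70366747-70366996 (minus strand, Nr2f2) and chr8:72318812-72319061 (plus strand, Klf2). Capitals mark matches, on either strand, to the letters listed after the sequences.
Tfec: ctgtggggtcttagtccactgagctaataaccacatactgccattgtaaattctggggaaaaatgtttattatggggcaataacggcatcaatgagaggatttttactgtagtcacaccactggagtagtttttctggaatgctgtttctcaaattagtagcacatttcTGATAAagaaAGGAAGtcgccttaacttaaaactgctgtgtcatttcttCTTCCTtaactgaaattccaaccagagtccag
Nr2f2: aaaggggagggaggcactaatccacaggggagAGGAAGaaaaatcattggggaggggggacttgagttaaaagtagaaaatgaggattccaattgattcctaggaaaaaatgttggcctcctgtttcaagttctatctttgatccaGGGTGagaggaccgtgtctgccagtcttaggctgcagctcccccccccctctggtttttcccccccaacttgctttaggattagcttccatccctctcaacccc
Klf2: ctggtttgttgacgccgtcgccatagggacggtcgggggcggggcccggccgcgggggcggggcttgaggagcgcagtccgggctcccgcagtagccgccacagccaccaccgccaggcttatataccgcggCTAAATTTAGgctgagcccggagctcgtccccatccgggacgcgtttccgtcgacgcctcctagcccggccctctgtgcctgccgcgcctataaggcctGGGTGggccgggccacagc
GATA factors were represented by the letters AGATAA or, equally, by TGATAA. For ETS factors the search used AGGAAG, the common form of their core with its flanks. SOX proteins were given AACAAT as their usual target. An E-box of the type bound by MITF-family factors was written CACGTG in the search. For KLF proteins CACCC was used, a short and frequent word. MEF2 factors were represented by CTANNNNTAG, and no matches overlapped one another. The Tfec window held a GATA match from 81 to 76 bases before the start and ETS matches at 71 to 66 and 32 to 27. The Nr2f2 window held an ETS match at 218 to 213 and a KLF match at 104 to 100. The Klf2 window held a MEF2 match at 118 to 109, of the motif bound by MEF2 factors that are known to drive Klf2 in endothelium, and a KLF match at 19 to 15. Over all 32851 promoter windows of this length, 16.6% held a GATA match, 29.5% an ETS match, 9.42% a SOX match, 6.02% the E-box, 52.0% a KLF match and 3.2% a MEF2 match. Of the other members, RefSeq windows were at hand for Elk3 and for 3 starts of Erg. Elk3 held an ETS match at 26 to 21 and KLF matches at 141 to 137 and 38 to 34. In Erg the most downstream start had GATA (103 to 98), ETS (40 to 35), SOX (120 to 115) and KLF (238 to 234) matches, a second start a KLF match at 83 to 79, and the remaining start none of these letters. These matches describe letters in a window and were not tested for binding.

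Comparison of livers labelled knockout with control livers addressed how endothelial regulators differ between the genotypes as labelled. The members split. Ets1, Sox7, Sox18 and Nr2f2 were higher in livers labelled knockout, by 1.41-fold to 1.79-fold, and Maf, Klf2 and Tfec were lower, by 1.39-fold to 2.94-fold. Erg, Elk3 and Sox17 had positive log2 fold changes and did not pass. Thus 4 of 10 rose, 3 fell and 3 did not pass, where 3.59% of all genes tested rose and 2.77% fell (6.36% in either direction). All 10 members were brighter than at least 54.7% of genes, and calls were more common among bright genes. With the dimmest 50% of genes left out, 1113 of 11640 genes rose and 950 fell. The members were chosen with earlier results of these data known, so their counts are descriptions. The groups' values did not overlap for 8 of the 10 members, against 27.3% of all genes. The median log2 fold change of the members was 0.36, against −0.01 over all genes. Of the 10 values 7 were positive, and the largest in size was a fall (Tfec, −1.55). The median therefore does not describe a shift shared by the members. The test was limma's moderated test fitted across all genes on 3 against 3 arrays, with Benjamini-Hochberg adjustment and a threshold of 0.05. With embryo sex as a term no member passed (adjusted p from 0.154 to 0.587), while all 10 kept their direction. Against control replicate 2 alone the log2 fold changes were the same, since that array was the only control with female-type Xist. Both fits therefore give the same estimate, which rests on a single control array. In these 2 limma fits 5 and 6 members were higher and 3 and 3 lower at an unadjusted p under 0.05, as were 14% and 12% of all genes in either direction, and 3 and 0 of all genes passed after adjustment.

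**Figure D1:**
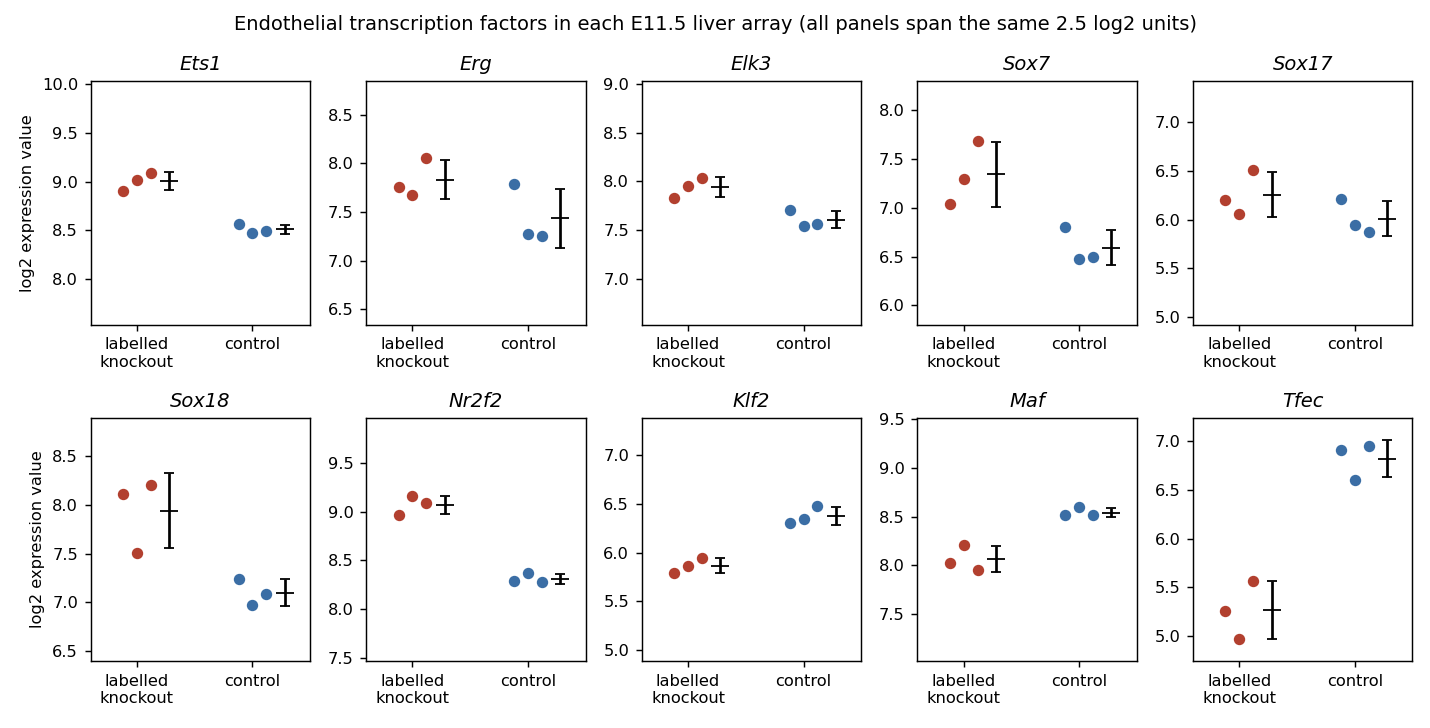
Log2 expression value of each member in the 3 livers labelled knockout (red) and the 3 control livers (blue), in replicate order from left to right, with the group mean and SD (n = 3) as black bars; each panel has its own origin and the same span. Red points lie above all blue points for Ets1, Elk3, Sox7, Sox18 and Nr2f2 and below them for Klf2, Maf and Tfec, and the groups overlap for Erg and Sox17.

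Of the ETS factors, Ets1 acts early in angioblasts and later in growing vessels and lymphocytes. It read 8.91, 9.02 and 9.09 in livers labelled knockout, against 8.56, 8.47 and 8.50 in control livers. All values of the first group lay above all of the second, and the rise was 1.41-fold (log2 fold change 0.49, SE 0.09, adjusted p = 0.0266; 0.53 against control replicate 2 alone). Leaving out labelled knockout replicate 3 ended the call (adjusted p = 0.0856), as did leaving out control replicate 1 (0.0628), 2 (0.0838) or 3 (0.102), with log2 fold changes of 0.45 to 0.54 over the fits without 1 array. Elk3, a ternary complex factor that represses transcription until phosphorylated, read 7.83, 7.96 and 8.03 in livers labelled knockout and 7.71, 7.54 and 7.57 in control livers. These groups did not overlap either, yet the difference did not pass (0.33, SE 0.10, adjusted p = 0.0910; 0.40 against control replicate 2 alone). Erg, which keeps endothelial cells in their identity and is also made by blood stem cells and megakaryocytes, read 7.76, 7.68 and 8.05 in livers labelled knockout and 7.79, 7.27 and 7.25 in control livers. Control replicate 1 exceeded 2 of the 3 livers labelled knockout, and Erg did not pass (0.40, SE 0.17, adjusted p = 0.214; 0.56 against control replicate 2 alone). Without 1 array the Erg value was between 0.28 (without labelled knockout replicate 3, adjusted p = 0.450) and 0.57 (without control replicate 1, adjusted p = 0.0813).

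Of the F-group SOX genes, Sox18 and Sox7 passed the test and Sox17 did not. Sox18, whose loss disturbs lymphatic and skin vessels in mice, read 8.12, 7.50 and 8.21 in livers labelled knockout and 7.25, 6.98 and 7.09 in control livers. Replicate 2 was the lowest of the livers labelled knockout and still lay above every control, for a 1.79-fold rise (log2 fold change 0.84, SE 0.18, adjusted p = 0.0388; 0.97 against control replicate 2 alone). Without that replicate the value was 1.06 (adjusted p = 0.0121), and the call was lost in each other fit without 1 array: labelled knockout replicate 1 (adjusted p = 0.0803) or 3 (0.112), and control replicate 1 (0.0751), 2 (0.120) or 3 (0.131). Sox7, a partner of Sox18 in early vessel formation, read 7.04, 7.30 and 7.69 in livers labelled knockout and 6.80, 6.48 and 6.50 in control livers. The groups did not overlap and Sox7 rose 1.68-fold (0.75, SE 0.17, adjusted p = 0.0436; 0.86 against control replicate 2 alone). Its call held without labelled knockout replicate 1 (0.90, adjusted p = 0.0272) and ended without labelled knockout replicate 2 (adjusted p = 0.0765) or 3 (0.0997) or control replicate 1 (0.0682), 2 (0.133) or 3 (0.153). Sox17, the factor of arterial and endodermal cells, read 6.20, 6.06 and 6.51 in livers labelled knockout and 6.21, 5.95 and 5.87 in control livers. Its groups overlapped and it did not pass (0.25, SE 0.14, adjusted p = 0.374; 0.31 against control replicate 2 alone).

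Setting one SOX gene against another on the same array, the Sox18 over Sox17 log ratio was higher by 0.59 in livers labelled knockout, and the Sox7 over Sox17 log ratio by 0.50. For both ratios the groups did not overlap. Exact two-sided permutation tests gave p = 0.1 for each, the smallest that 3 against 3 arrays can give, so a difference between these paralogs could not pass at this size. The 7 paralog pairs compared in this way were a family, and their p-values were 0.1 or above before any adjustment.

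Nr2f2 had the member rise least dependent on any 1 array. It read 8.97, 9.16 and 9.09 in livers labelled knockout, against 8.29, 8.37 and 8.28 in control livers. The gap between the groups was wide beside the spread within each, and the rise was 1.69-fold (log2 fold change 0.76, SE 0.09, adjusted p = 0.0104; 0.70 against control replicate 2 alone). The call held in 5 of 6 fits without 1 array and was lost without control replicate 3 (adjusted p = 0.0553). Nr2f2 is also made by liver mesenchyme, some of whose markers rose: 5 of 17 rose, 0 fell and 12 did not pass, with a median log2 fold change of 0.52. Their summed level, on a log2 scale, was 13.5 to 13.7 in livers labelled knockout and 12.8 to 13.1 in control livers. Relative to the median of these 17 markers on the same array, the mean Nr2f2 difference between the groups was 0.00 (exact two-sided permutation p = 1). This median was of marker levels, not of marker changes, and the marker in the middle could differ between arrays. A value of 0.00 thus does not mean that Nr2f2 (0.76) rose as much as the typical marker (0.52). The Nr2f2 difference was 0.27 with the mean of the markers in place of their median. With the median it was −0.24 to 0.15 when 1 array was left out. Relative to the median of 18 shared endothelial markers Nr2f2 was higher by 0.66 (exact permutation p = 0.1, the smallest possible). The part of mesenchyme in the Nr2f2 rise was not tested beyond these ratios. Its paralog Nr2f1 read 6.45, 8.60 and 7.86 in livers labelled knockout and 6.72, 6.65 and 6.95 in control livers, so its groups overlapped and it did not pass (0.86, adjusted p = 0.324).

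Klf2, induced by flow, needed for stable vessel walls and also active in lymphocytes and primitive erythroid cells, was lower. It read 5.79, 5.86 and 5.95 in livers labelled knockout, against 6.30, 6.34 and 6.48 in control livers. The groups did not overlap, and the fall was 1.42-fold (log2 fold change −0.51, SE 0.09, adjusted p = 0.0272; −0.47 against control replicate 2 alone). The call held without labelled knockout replicate 2, narrowly at an adjusted p of 0.04997, and was lost without labelled knockout replicate 1 (0.0526) or 3 (0.0683) or control replicate 1 (0.0604), 2 (0.0741) or 3 (0.106). Its paralog Klf4, which is also driven by flow, did not pass (0.03, adjusted p = 0.925), and the Klf2 over Klf4 log ratio, labelled knockout minus control, differed by −0.54 with no overlap (exact permutation p = 0.1, the smallest possible). Some markers of erythroid cells, the main blood cells of this organ, fell too: 6 of 14 fell, 0 rose and 8 did not pass, with a median of −0.77. The summed erythroid level was 13.41 to 13.63 in livers labelled knockout and 13.88 to 14.52 in control livers on a log2 scale. The part of erythroid cells in the Klf2 fall was not tested. Of 10 genes known to be regulated by KLF2, the tissue plasminogen activator gene Plat rose (0.76, adjusted p = 0.0160), the stress factor gene Nfe2l2 fell (−0.37, adjusted p = 0.0481) and 8 did not pass. The flow-induced genes Nos3 (−0.10, adjusted p = 0.721) and Thbd (0.10, adjusted p = 0.712) were among the 8, and the list's median was 0.06. The list was not split into genes that KLF2 raises and genes that it lowers. Its median is therefore no measure of a response to Klf2, which was not tested.

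Tfec and Maf, the members shared by sinusoidal endothelium and macrophages, were both lower. Tfec read 5.26, 4.97 and 5.57 in livers labelled knockout, against 6.91, 6.60 and 6.95 in control livers. The highest of the first group lay about 1 log2 unit below the lowest of the second. The fall was 2.94-fold (log2 fold change −1.55, SE 0.17, adjusted p = 0.00821; −1.33 against control replicate 2 alone), and only 18 of the 23279 genes had a more negative log2 fold change. It held in 5 of 6 fits without 1 array and was lost without control replicate 3 (adjusted p = 0.0536). Maf read 8.03, 8.21 and 7.96 in livers labelled knockout and 8.51, 8.60 and 8.51 in control livers. Its groups did not overlap, with a 1.39-fold fall (−0.48, SE 0.10, adjusted p = 0.0340; −0.53 against control replicate 2 alone). Without labelled knockout replicate 2 the Maf call held (−0.55, adjusted p = 0.0304), and it was lost without labelled knockout replicate 1 (0.0669) or 3 (0.104) or control replicate 1 (0.0813), 2 (0.106) or 3 (0.113).

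Most macrophage markers fell too: 13 of 19 fell, 0 rose and 6 did not pass, with a median of −0.99 and a summed level of 11.5 to 11.9 in livers labelled knockout and 12.2 to 12.5 in control livers on a log2 scale. Among them were the colony-stimulating factor receptor Csf1r (−1.33), the F4/80 antigen Adgre1 (−1.45) and the factor Spic (−1.80), and the listed gene furthest in the other direction was the receptor tyrosine kinase Axl (0.39, adjusted p = 0.0522). Relative to the median of these markers on the same array, Tfec differed by −0.65 on the log2 scale (groups not overlapping), while Maf differed by 0.43 (groups overlapping). When 1 array was left out, the Tfec value was −0.80 to −0.47 and the Maf value 0.18 (without labelled knockout replicate 2) to 0.62. Exact permutation p-values were 0.1, the smallest possible, and 0.2. Relative to the median of the 18 shared endothelial markers, Tfec differed by −1.65 and Maf by −0.57, both with no overlap (exact permutation p = 0.1). Some sinusoidal markers fell as well: 8 of 22 fell, 2 rose and 12 did not pass (median −0.17), with Stab2 at −1.30, Lyve1 at −1.14 and the lectin gene Fcna at −1.34, while Stab1 did not pass (−0.05, adjusted p = 0.854). The 2 that rose were Rspo3 (0.77, adjusted p = 0.0161) and Gata4 (0.51). Gata4 is the targeted gene, and where its probes lie relative to the deleted part is not known. Mrc1, Fcna and Il1a of that list are also macrophage genes. Which of these cell types the lower Tfec and Maf values come from cannot be told apart in whole liver.

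**Figure D2:**
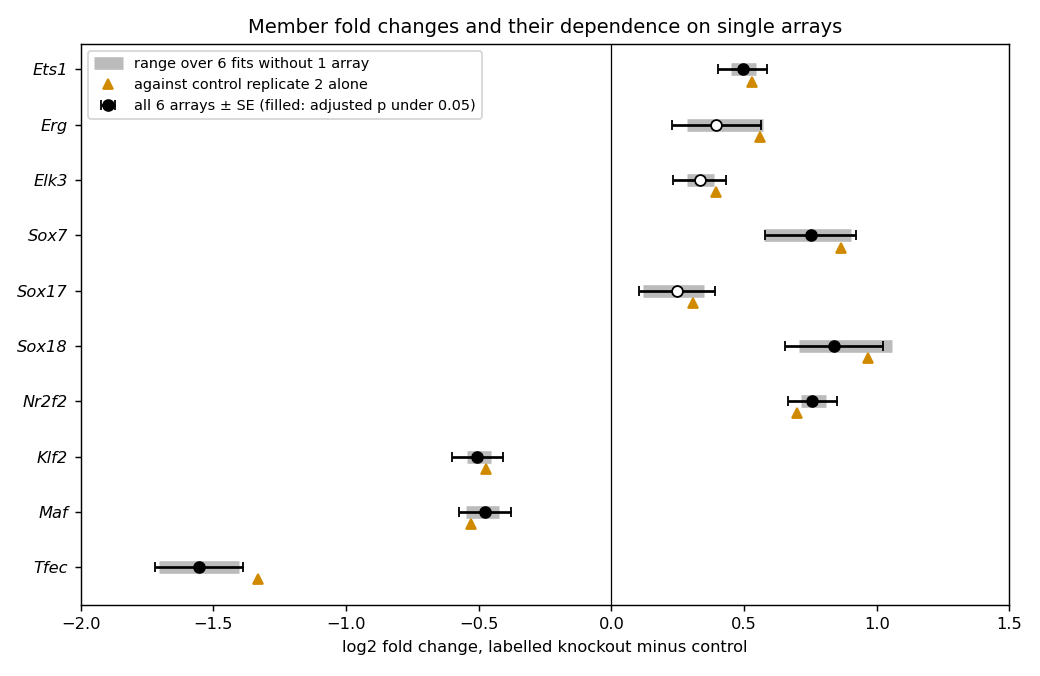
Log2 fold change of each member, labelled knockout minus control. Circles are the limma estimate on 6 arrays with its SE, filled where the adjusted p is under 0.05; grey bars span the 6 fits without 1 array, and triangles are values against control replicate 2 alone. No bar or triangle crosses 0, and Tfec lies furthest from 0 at −1.55.

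Within each group 1 array was often the highest. Labelled knockout replicate 3 was the highest of its group for 8 of 10 members, including all 3 ETS and all 3 SOX genes, and control replicate 1 the highest control for 6 of 10, the same ETS and SOX genes. Nr2f2 and Maf were highest in replicate 2 of both groups. By the median difference from the control mean, shared endothelial markers read 0.27, 0.01 and 0.43 in labelled knockout replicates 1, 2 and 3, and 0.08, 0.00 and −0.08 in control replicates 1, 2 and 3. Of the 18 shared endothelial markers 5 rose, 0 fell and 13 did not pass, with a median log2 fold change of 0.25. The cell junction genes Pecam1 (0.63) and Cdh5 (0.53) and the sialomucin gene Emcn (1.00) were among the 5. Relative to the median of these markers on the same array, Sox18 was higher by 0.74, Sox7 by 0.66, Ets1 by 0.40, Erg by 0.30, Elk3 by 0.24 and Sox17 by 0.15, and Klf2 was lower at −0.60. That median was taken over the marker levels, so the markers in the middle differed between arrays. Its shift between the groups was therefore not the list's median change of 0.25. The groups did not overlap for Sox18, Ets1 and Klf2 (exact permutation p = 0.1 each, the smallest possible) and overlapped for Erg, Elk3, Sox7 and Sox17 (p from 0.2 to 0.4). With the mean of the markers in place of the median, the Sox18 value was 0.54, that of Sox7 0.45, that of Ets1 0.19, that of Erg 0.09, that of Elk3 0.03, that of Sox17 −0.05 and that of Klf2 −0.81. The size of the excess over endothelial markers thus depends on how the markers are summarised. For Sox17 its sign does too, and for Erg and Elk3 little excess was left with the mean.

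The families to which the members belong hold further genes. Of the 22 further ETS genes measured, Erf (0.63, adjusted p = 0.0205), a repressor, and Elk1 (0.39, adjusted p = 0.0412) rose, and 2 myeloid factors fell: Spi1, which encodes PU.1 (−1.06, adjusted p = 0.0180), and Spic, needed for splenic red pulp macrophages (−1.80, adjusted p = 0.00911). The other 18 did not pass, with a median of 0.03 over the 22. Fli1, the closest paralog of Erg, read 10.54, 10.08 and 10.03 in livers labelled knockout and 10.52, 10.26 and 10.41 in control livers and did not pass (−0.18, adjusted p = 0.562). The groups of the Erg over Fli1 log ratio overlapped, with a difference of 0.58 (exact permutation p = 0.2). Ets2, the paralog of Ets1, read 9.84, 9.80 and 9.94 in livers labelled knockout and 9.60, 9.24 and 9.30 in control livers. It narrowly failed to pass (0.48, adjusted p = 0.0516), and the Ets1 over Ets2 log ratio differed by 0.01 (exact permutation p = 0.9).

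Of 17 SOX genes outside the members, Sox9, a factor of bile duct precursors and cartilage, rose (0.88, adjusted p = 0.0336) and 16 did not pass (median 0.10). Sox9 read 7.84, 8.54 and 7.87 in livers labelled knockout and 7.29, 7.18 and 7.16 in control livers, so labelled knockout replicate 2 was the highest. None of 5 further genes of the NR2 family passed (median 0.02). Of 16 further KLF genes, Klf12 rose (0.60, adjusted p = 0.0223), the erythroid factor gene Klf1 fell (−0.80, adjusted p = 0.0256) and 14 did not pass (median −0.06). The 5 further MAF genes did not pass (median −0.12), the lowest being the small MAF gene Mafk (−0.55, adjusted p = 0.132). All 3 relatives of Tfec had negative values and did not pass: Mitf (−0.40, adjusted p = 0.129), Tfeb (−0.29, adjusted p = 0.218) and Tfe3 (−0.01, adjusted p = 0.974). The Tfec over Mitf log ratio, labelled knockout minus control, differed by −1.16 with no overlap between the groups (exact permutation p = 0.1, the smallest possible).

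**Figure D3:**
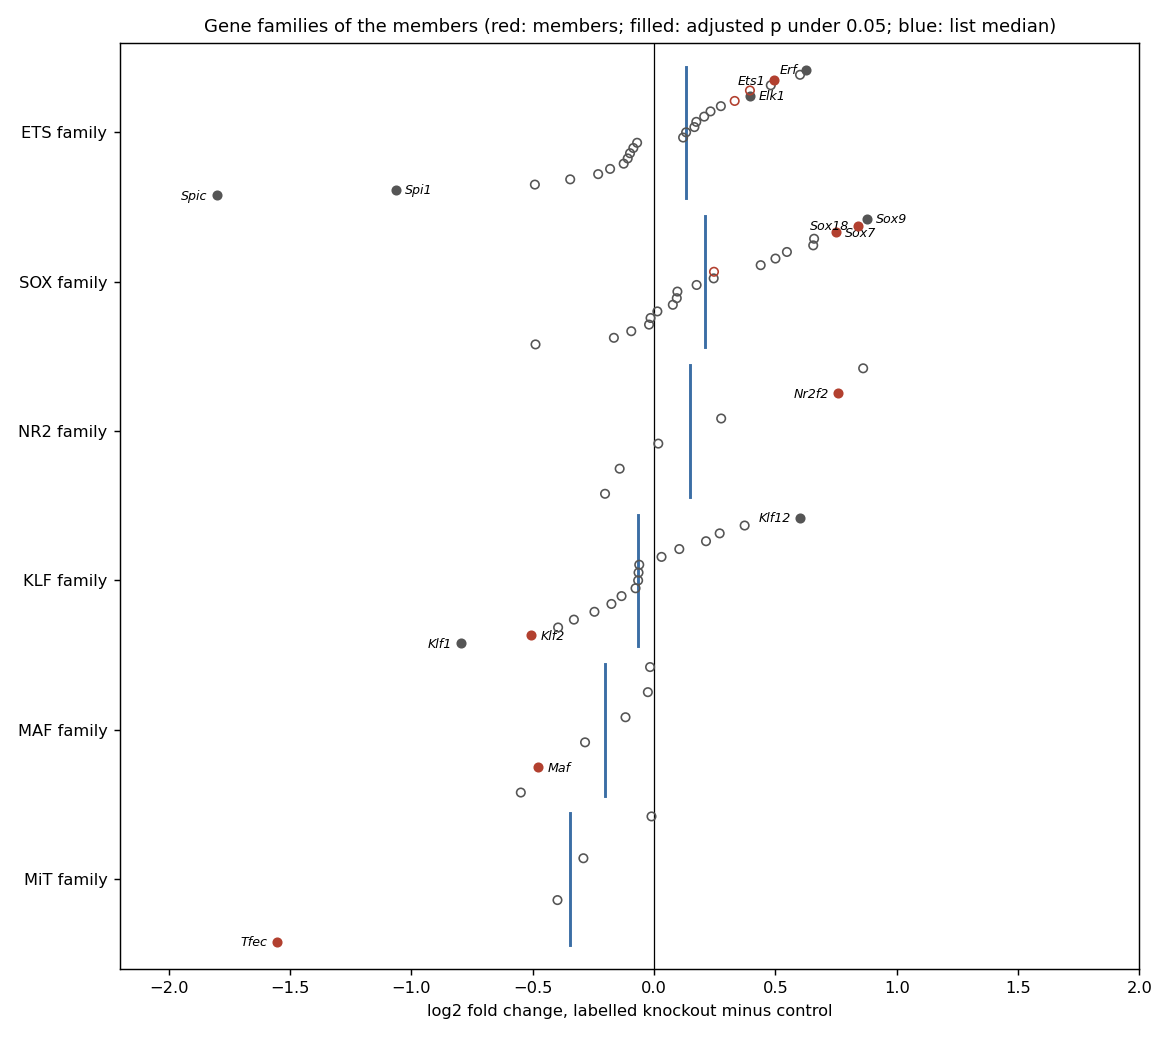
Log2 fold change, labelled knockout minus control, of every measured gene in the members' families, 1 point a gene, with members in red, points filled and named where the adjusted p is under 0.05, and the family median as a blue line. Tfec stands 1.16 log2 units below the next MITF-family gene, and the myeloid genes Spi1 and Spic lie far below the other ETS genes.

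Among 36 other transcription factors known from endothelium, 6 rose, 4 fell and 26 did not pass (median 0.28). The Notch target Hey1 (1.08, adjusted p = 0.0126), the homeobox gene Meox2 (1.01, adjusted p = 0.0126), Zeb1 (0.56) and Foxc1 (0.72) rose, along with Id3 and the targeted gene Gata4. The 4 that fell were Nfatc1, a factor of heart valve endocardium (−0.76, adjusted p = 0.0155), and 3 genes shared with blood progenitors, Tal1 (−0.98, adjusted p = 0.00740), Lyl1 (−0.67, adjusted p = 0.0357) and Lmo2 (−0.61, adjusted p = 0.0439). Genes with known ETS or SOX F-group sites in endothelium gave 5 rises, 2 falls and 13 that did not pass out of 20 (median 0.34). Pecam1, the VEGF co-receptor Nrp1 (0.53), the endothelin-processing enzyme Ece1 (0.51), Cdh5 and the VEGF receptor Flt1 (0.65) rose, and Lmo2 and the von Willebrand factor gene Vwf (−0.78, adjusted p = 0.0469) fell. Vwf is also a megakaryocyte gene, and 4 of 12 megakaryocyte markers fell, 0 rose and 8 did not pass (median −0.82; summed level 12.49 to 13.47 in livers labelled knockout and 13.61 to 13.96 in control livers on a log2 scale).

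Genes of arterial and of venous identity were among those that rose. Of 16 arterial genes 5 rose, 0 fell and 11 did not pass (median 0.34): the BMP9 receptor gene Acvrl1 (0.93, adjusted p = 0.0101), Hey1, the connexin gene Gja4 (0.70), Unc5b (0.69) and Nrp1. Efnb2, the arterial ephrin gene, read 7.99, 9.48 and 7.98 in livers labelled knockout and 7.47, 7.35 and 7.30 in control livers. Labelled knockout replicate 2 stood far above the other arrays, and Efnb2 did not pass (1.11, adjusted p = 0.116). Of 9 venous and lymphatic genes other than Nr2f2, the ephrin receptor gene Ephb4 (0.65, adjusted p = 0.0183) and Emcn rose, Lyve1 fell and 6 did not pass (median 0.58), among them the apelin receptor gene Aplnr (0.59, adjusted p = 0.0624) and Nrp2 (0.88, adjusted p = 0.0652). Lymphoid markers, listed because Ets1 and Klf2 are active in lymphocytes, gave 1 fall (Ighm, −0.82), 0 rises and 9 that did not pass out of 10 (median −0.13), and their summed levels of 7.57 to 7.60 in livers labelled knockout and 7.77 to 7.92 in control livers are on a log2 scale. Of 17 hepatoblast genes 2 rose, 0 fell and 15 did not pass (median 0.35): the T-box factor gene Tbx3 (0.73) and the pioneer factor gene Foxa1 (0.75). By the median difference from the control mean, hepatoblast genes read 0.44, 0.04 and 0.46 in labelled knockout replicates 1, 2 and 3.

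**Figure D4:**
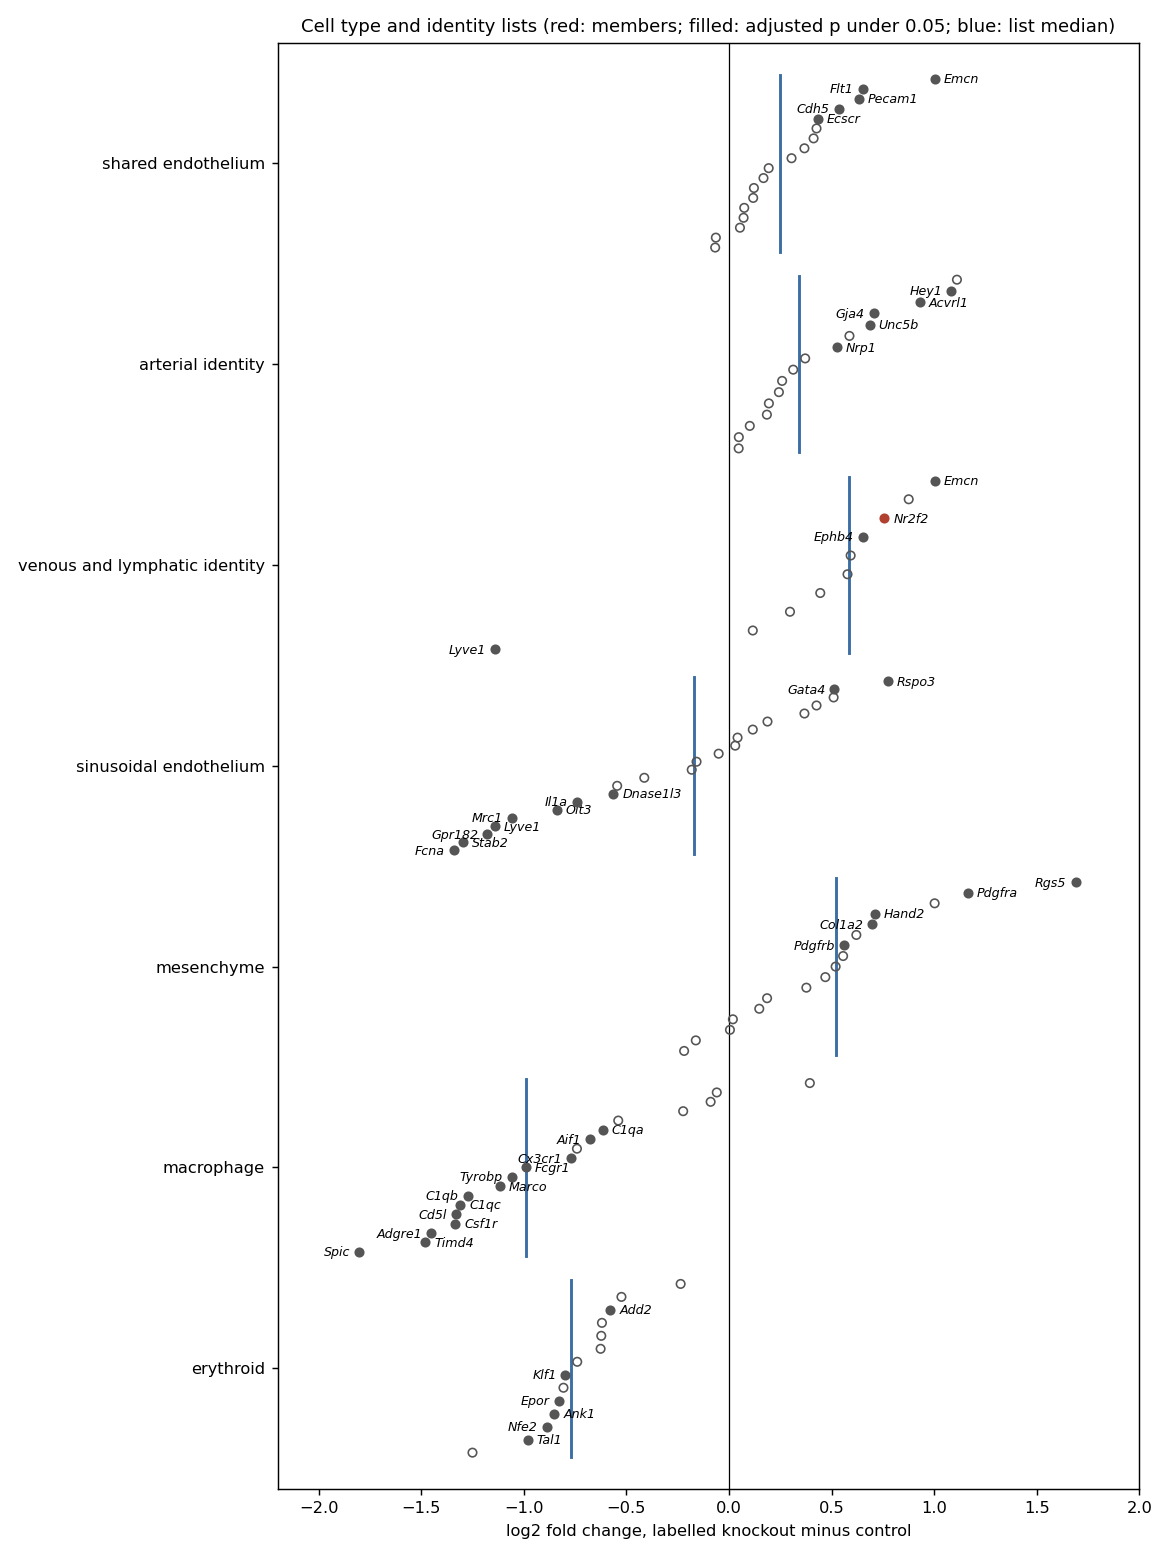
Log2 fold change, labelled knockout minus control, of every measured gene in 7 lists of cell type and vessel identity genes, 1 point a gene, filled and named where the adjusted p is under 0.05, with the list median as a blue line; Nr2f2 is in red. Medians are 0.25 for shared endothelium, 0.34 for arterial, 0.59 for venous and lymphatic (with Nr2f2), −0.17 for sinusoidal, 0.52 for mesenchyme, −0.99 for macrophage and −0.77 for erythroid genes.

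For each member that passed, the 3 genes of most similar pattern were those with the smallest root mean square difference over the 6 arrays, after each gene's own mean was subtracted. For Tfec they were Gpr65, Cd86 and Cd53, at 0.12 log2 units each, all genes of leukocytes. For Nr2f2 they were Mxra8, Plekha1 and Tle1 (0.04 each), and for Ets1 they were the glypican gene Gpc3 (0.03), Rai14 and Fkbp14 (0.04 each). Sox7 was nearest to the matrix gene Edil3 (0.07), Zfp383 (0.08) and Ube2e2 (0.10). Sox18 was nearest to Mir7-1 (0.06), the vasoactive peptide gene Adm (0.07), itself at a log2 fold change of 0.86, and AF357355 (0.09). Maf was nearest to Nsa2, Slc38a10 and Sprtn (0.04 each), and Klf2 to Ogfrl1 (0.03), Snrnp25 and Gemin6 (0.04 each). Small distances are common where a gene's own range is small, and the likeness rests on 6 arrays in 2 groups.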

How the data were processed

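Total RNA of 6 dissected fetal livers was measured on Affymetrix arrays, 3 labelled knockout and 3 control. The authors deposited log2 values, for which the submitters' processing notes name RMA, a method that subtracts background, quantile-normalises arrays and combines probes. Its version and chip definition are not stated, and the log2 scale was read from the values. Sorted values were identical in all arrays, so a change common to most genes would be hidden. Precision is limited by the number of arrays. Of 24479 features 23281 were named through the platform annotation, with current symbols from a RefSeq table of GRCm38.p6, and 1198 had no name here; where 2 features shared a symbol (2 cases) the brighter was kept, leaving 23279 genes. Promoter sequences came from RefSeq (GRCm38.p6) and were at hand for 5 of the 10 members.

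All genes entered limma 3.58.1 (R 4.3.3; lmFit, then eBayes) with no covariate and no filter, Benjamini-Hochberg adjusted over all genes, at 0.05. Single log ratios were compared with exact permutation tests in SciPy 1.17.1. Ratios to markers used the median of the marker levels on each array, so the marker in the middle could differ between arrays. The calculations were tested on simulated data. The members and 19 gene lists were chosen with earlier results of these data known, and direction-of-change counts of lists are descriptions. Named were all members and their paralog pairs, Gata4, Xist, up to 4 genes of smallest p in each list and the 3 nearest patterns. Adgre1, Aplnr, Axl, Csf1r, Efnb2, Elk1, Flt1, Foxc1, Foxf1, Id3, Il1a, Lmo2, Lyl1, Nos3, Nrp2, Rspo3, Sox2, Stab1, Stab2, Thbd and Zeb1 lie outside this rule and were chosen after their values were seen. Afp and Alb were named as tissue checks.

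Alternatives were a variance trend, robust eBayes, array weights, cyclic loess, leaving out the dimmest 25% or 50% of genes, the replicate number as a block, embryo sex as a term or as a selection of controls, an adjusted p of 0.1, the mean of a marker list, and leaving out each array. Columns of values without a sample numbered 0.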

Additional observations from a re-analysis of the deposited data

How the results depend on the processing

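All 160 member values under 16 alternative settings kept their direction. A variance trend, robust eBayes, leaving out dim genes, the replicate block and an adjusted p of 0.1 left every log2 fold change as it was. Direction could therefore change only under the other settings, of which embryo sex as a term and the same-sex controls gave the same log2 fold changes. The calls of 4 rises and 3 falls were the same with a variance trend, robust eBayes, array weights, cyclic loess or the dimmest 25% or 50% of genes left out; an adjusted p of 0.1 added Elk3, with 1430 genes higher and 1270 lower, against 836 and 644 at 0.05. With embryo sex as a term 0 members rose and 0 fell, and 3 genes rose and 0 fell; against controls of the same sex call 0 members and 0 genes passed, with a single control array whose spread was taken from the other group. By limma 3259 and 2783 genes had an unadjusted p under 0.05 in these fits, against 5245. When 1 array was left out, 0 to 3 members rose and 0 to 3 fell, and 25 to 785 genes rose and 16 to 610 fell. No member passed without control replicate 3, where 5 members were higher and 3 lower at an unadjusted p under 0.05, as were 4020 genes (17.3%) in either direction. Each such fit has fewer arrays.

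The titles give both groups replicates 1 to 3. Deviations of same-numbered arrays from their group means correlated at −0.05, −0.01 and −0.08, and no array correlated best with its own number. These values gave no sign that the numbers pair the arrays. With 3 arrays a group they cannot exclude it, and the labels do not state litters. With the replicate number as a block 2 members rose and 1 fell, and 405 genes rose and 281 fell, with the calls of Ets1, Sox7, Maf and Klf2 lost (adjusted p from 0.0537 to 0.0865). Of the ratios to markers, the mean in place of the median gave 0.19 for Ets1, −0.055 for Sox17, 0.54 for Sox18 and −0.81 for Klf2 against shared endothelium, and the other 87 values moved by less than the spread between replicates, as did all 42 of the paralog ratios with 1 array left out, although Ets1 over Ets2 (−0.07 to 0.07) and Nr2f2 over Nr2f1 (−0.65 to 0.33) crossed 0. Leaving out arrays for the ratios to markers was added after seeing the data. No measure of signal over background was used, so dim features could not be told from background.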
